A study of Rattus norvegicus with 6 samples.

Results

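The miRNAs described here are the rows of the expression table named for miR-142, miR-223, miR-150 and miR-342, 4 precursors known as markers of blood cells. The rule of taking every row whose name begins with these precursors gave 8 of the 764 rows, a 3p and a 5p arm for each precursor, and all 8 were above 0 in every library. The data are small RNA sequencing of rat tissue with the label testicle: 3 libraries of HO-1 knockout rats and 3 of wild type rats, all male Sprague Dawley. Every animal had the left testicle turned by 720° for 2 h and then released, and tissue was taken on day 3 of reperfusion, so the groups differed by genotype and no uninjured library was analysed here. HO-1 is heme oxygenase 1, the inducible enzyme that degrades heme. Age, the knockout allele, and whether each library came from its own animal are not stated in the sources used here, so p-values cover the spread among these libraries and no more. HO-1 messenger RNA is not part of this assay, which leaves the knockout labels unchecked.

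miR-142 is made throughout the hematopoietic lineages and in hardly any other cells, and is used as a general leukocyte marker. miR-223 is known from granulocytes and monocytes, in which it restrains neutrophil activity in mice. miR-150 is abundant in mature lymphocytes, where it acts on the transcription factor Myb in mice, and miR-342 is known from lymphoid and myeloid cells. Each precursor is a hairpin that is cut into a duplex of its 5p and 3p arms. Usually a single strand of this duplex is kept by Argonaute proteins as the guide and the other is degraded. The testis holds resident interstitial macrophages, and reperfusion after torsion is known to bring in neutrophils and further macrophages.

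The mature sequences are shown because each is a separate readout with its own targets. The seed, bases 2 to 8 from the 5′ end, is in capitals, and the letters come from RefSeq on GRCr8, where 6 of the 8 rows had an entry. The arms of miR-150 are named only.
miR-142-3p: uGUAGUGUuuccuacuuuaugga
miR-142-5p: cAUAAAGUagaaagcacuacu
miR-223-3p: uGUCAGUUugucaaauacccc
miR-223-5p: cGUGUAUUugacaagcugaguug
miR-342-3p: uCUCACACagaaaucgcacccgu
miR-342-5p: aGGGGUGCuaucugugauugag
The 6 seeds were all different, and none of the other rat mature miRNAs among the 693 names in that table shared any of them. Among those names, none would be grouped with these 6 by its seed. The arms of miR-150, and measured miRNAs without an entry there, were not compared.

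The hairpins show which pieces compete in the arm comparison, with the mature arms in capitals. They lie at chr10:73055104-73055190 for miR-142, chrX:65151383-65151492 for miR-223 and chr6:133329655-133329753 for miR-342, all on the plus strand of GRCr8.
Mir142: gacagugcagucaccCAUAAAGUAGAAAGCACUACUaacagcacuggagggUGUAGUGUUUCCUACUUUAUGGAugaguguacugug
Mir223: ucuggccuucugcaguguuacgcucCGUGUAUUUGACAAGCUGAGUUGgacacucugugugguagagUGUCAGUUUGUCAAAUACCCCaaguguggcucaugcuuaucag
Mir342: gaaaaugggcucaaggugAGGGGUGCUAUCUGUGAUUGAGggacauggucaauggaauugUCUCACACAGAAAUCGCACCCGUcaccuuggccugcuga
The 5p arm comes first in each, and 15, 19 and 20 bases separate it from the 3p arm in miR-142, miR-223 and miR-342. In the same annotation Mir342 lies within the spans of Evl, a gene for an actin regulator, and of a long noncoding RNA. Mir142 lies within that of Tspoap1 and Mir223 within that of another long noncoding RNA, while no annotated gene spans Mir150. Spans were matched by position only, so a shared strand is not implied.

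Values are reads per 1000000 assigned reads (RPM) as the authors deposited them. Recovered totals were 8300536 to 9809055 reads in the knockout and 9128924 to 10042673 reads in the wild type, so 3 reads equal 0.299 to 0.361 RPM. The label testicle was checked against miRNAs of germ and Sertoli cells. Of 31 such rows, 15 were 0 in every library, among them both arms of miR-465, miR-880 and miR-883, as were 194 of all 764 rows. The other 16 were above 0 in some library, the highest being miR-34c-5p. It stood at 18.4 to 22.0 RPM in the knockout and 24.9 to 38.0 RPM in the wild type. The whole list summed to 28.0 to 32.9 RPM in the knockout and 39.3 to 53.9 RPM in the wild type. The arms of miR-122, which is known from hepatocytes, held 40.4% to 46.5% of the reads in the knockout and 32.8% to 36.7% in the wild type. Which tissue the values describe is therefore not settled by the label, and the part of these miRNAs in the results below was not tested.

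All 8 rows together made up 897 ± 57 RPM in the knockout and 859 ± 58 RPM in the wild type (SD, n = 3; two-sided exact permutation test, p = 0.5; 3 against 3 libraries can reach 0.1 at the lowest). The sum was 883, 960 and 849 RPM in knockout libraries 1 to 3, against 909, 871 and 796 RPM in wild type libraries 1 to 3. The groups overlapped. The sum is made mostly of miR-142. Without its arms the other 6 rows held 202 ± 26 RPM in the knockout and 248 ± 20 RPM in the wild type, and every knockout library was below every wild type library (SD, n = 3; two-sided exact permutation test, p = 0.1). The groups almost met, with a highest knockout sum of 224.7 RPM and a lowest wild type sum of 226.0 RPM. That separation holds for library totals. With TMM scaling, which sets the bulk of the miRNAs equal between libraries, these 6 rows held 205 to 226 scaled RPM in the knockout and 218 to 239 in the wild type, and the groups overlapped (two-sided exact permutation test, p = 0.2). In bulk tissue, fewer cells of a type and less RNA per cell cannot be told apart.

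In the knockout the order of levels was miR-142-3p, miR-142-5p, miR-150-5p, miR-223-3p, miR-342-3p, miR-223-5p, miR-342-5p and miR-150-3p. The wild type had the same order except that miR-142-5p stood ahead of miR-142-3p. The libraries of both miR-142 arms touched in the knockout, where the lowest 3p value and the highest 5p value were 368 RPM each, and stood apart in the wild type. Those of miR-342-5p and miR-150-3p overlapped in both genotypes, and all other neighbours in the order stood apart. These are levels in RPM of RNAs of 21 to 23 bases for those with a sequence, and the efficiency of ligation, which differs between sequences, was not corrected for. By rank among the 764 rows, miR-142-3p lay between place 63 and place 86 over the libraries, miR-150-5p between 108 and 115, miR-223-3p between 130 and 147, and miR-342-3p between 163 and 183.

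**Figure D1:**
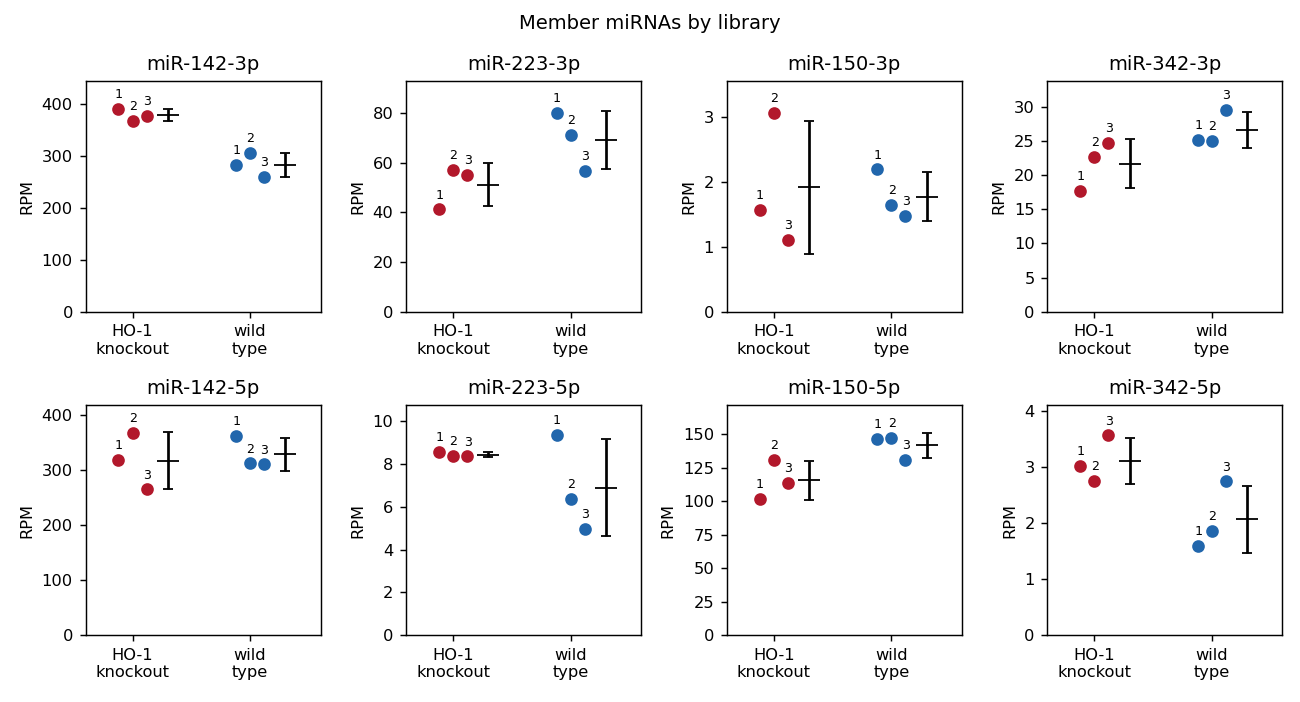
RPM of the 8 rows in each library, HO-1 knockout on the left and wild type on the right of each panel; numbers mark the libraries, and bars give the mean ± SD (n = 3). The 3 knockout values of miR-142-3p, 368 to 390 RPM, lie above the 3 wild type values, 260 to 306 RPM, while those of miR-142-5p overlap.

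rno-miR-142-3p, an arm known to act in myeloid and lymphoid cells, was the member with the smallest p. It stood at 390, 368 and 377 RPM in knockout libraries 1 to 3, against 282, 306 and 260 RPM in wild type libraries 1 to 3. Every knockout library was above every wild type library, and the counting intervals of the nearest values did not meet, at 356 to 380 RPM in knockout library 2 and 294 to 317 RPM in wild type library 2 (exact Poisson, 95%). The log2 change on the log2(RPM + 1) scale was 0.42 (SE 0.11) and missed the threshold of 0.05 over the 570 miRNAs tested (limma with Benjamini-Hochberg adjustment, adjusted p = 0.062). rno-miR-142-5p, from the same hairpin, stood at 319, 368 and 265 RPM in knockout libraries 1 to 3, against 363, 312 and 310 RPM in wild type libraries 1 to 3. Its groups overlapped throughout, and its log2 change was -0.06 (SE 0.15; adjusted p = 0.81 in limma).

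None of the 8 rows passed in this test, in which 6.32% of all tested miRNAs did. By unadjusted p, 1 of the 8 was below 0.05, against 19.3% of all tested miRNAs. In the authors' deposited table, miR-142-3p also had the smallest p-value of the 8, 0.000303, and was the only member below 0.05, a mark that 13.7% of the 764 rows passed there. The sources used here do not say whether that p-value was adjusted.

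rno-miR-223-3p, the guide strand of the myeloid miR-223, stood at 41.2, 57.1 and 54.9 RPM in knockout libraries 1 to 3, against 79.9, 71.1 and 56.7 RPM in wild type libraries 1 to 3. The groups touched only where knockout library 2 passed wild type library 3. Its log2 change was -0.43 (SE 0.19) and did not pass (limma adjusted p = 0.27); without knockout library 1 it was -0.29. Its partner strand miR-223-5p was rare, at 8.55, 8.36 and 8.34 RPM in knockout libraries 1 to 3, against 9.36, 6.35 and 4.96 RPM in the wild type ones. The knockout libraries were nearly equal and lay inside the range of the wild type, with a log2 change of 0.29 (SE 0.26; adjusted p = 0.55 in limma) that was 0.51 without wild type library 1 and 0.11 without wild type library 3.

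rno-miR-150-5p, the lymphocyte guide strand, stood at 101.8, 130.8 and 113.8 RPM in knockout libraries 1 to 3, against 146, 147 and 131 RPM in wild type libraries 1 to 3. Knockout library 2 and wild type library 3 had almost the same value, and the other knockout libraries were below all of the wild type. The log2 change was -0.30 (SE 0.14; adjusted p = 0.29 in limma). miR-150-3p was at 1.11 to 3.06 RPM in the knockout and 1.48 to 2.19 RPM in the wild type, or 10 to 30 and 14 to 22 reads, and its log2 change was 0.03 (SE 0.29; adjusted p = 0.97 in limma).

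rno-miR-342-3p, the guide strand of the miRNA within Evl, stood at 17.7, 22.6 and 24.7 RPM in knockout libraries 1 to 3, against 25.2, 25.0 and 29.5 RPM in wild type libraries 1 to 3. All knockout values were below all wild type values, but the nearest pair differed by less than counting error, with intervals of 21.5 to 28.2 RPM in knockout library 3 and 21.8 to 28.4 RPM in wild type library 2. The log2 change was -0.29 (SE 0.19; adjusted p = 0.44 in limma), and -0.16 without knockout library 1. miR-342-5p stood at 3.01, 2.75 and 3.56 RPM in knockout libraries 1 to 3, against 1.59, 1.86 and 2.74 RPM in wild type libraries 1 to 3. These rest on 25 to 32 reads in a knockout library and 16 to 26 reads in a wild type library, the nearest pair was equal within counting error, and the log2 change was 0.44 (SE 0.24; adjusted p = 0.36 in limma). Thus 3 of the 8 rows, miR-142-3p, miR-342-3p and miR-342-5p, had groups that did not overlap, against 26% of all tested miRNAs.

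**Figure D2:**
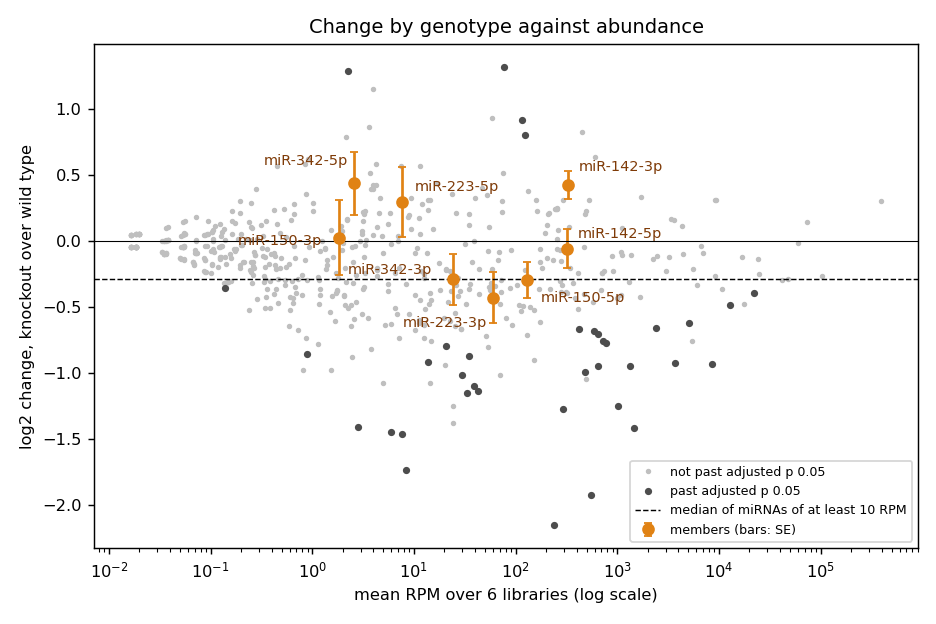
Log2 change of knockout over wild type against mean RPM (log scale) for the 570 tested miRNAs, with the 8 rows in orange (bars: SE) and miRNAs past an adjusted p of 0.05 in dark grey. miR-342-3p and miR-150-5p lie on the dashed median of the 218 miRNAs of at least 10 RPM, -0.29, and miR-142-3p lies 0.42 above 0.

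RPM values are relative to a total in which miR-122 held a larger share in the knockout, and the median log2 change over the 218 miRNAs of at least 10 RPM was -0.29. The 5 members of that abundance had a median of -0.29 too. Read against that shift, miR-150-5p and miR-342-3p lay at the level of other miRNAs, miR-223-3p lay below it by less than its SE, and both miR-142 arms lay above it by more than theirs. TMM scaling moved the median of all 218 to -0.08. On that scale miR-142-3p rose in the knockout, with a log2 change of 0.64 (SE 0.12; adjusted p = 0.019 in limma), and was the only member to pass, as 8.6% of all tested miRNAs did. The log2 changes were then 0.16 (SE 0.13) for miR-142-5p, -0.22 (SE 0.12) for miR-223-3p, -0.08 (SE 0.10) for miR-150-5p and -0.08 (SE 0.18) for miR-342-3p (limma adjusted p = 0.58, 0.40, 0.70 and 0.80). miR-142-5p changed sign with the scaling. On the recovered reads miR-142-3p was again the only one of the 8 to pass, with a log2 change of 0.64 in edgeR's quasi-likelihood test (Benjamini-Hochberg adjusted p = 0.0071) and 0.66 in DESeq2 (adjusted p = 0.00016), where 10.7% of the 570 miRNAs and 20.6% of the 349 to which DESeq2 gave an adjusted p passed. The summed level of the 8 rows with TMM scaling was 967 ± 73 in the knockout and 796 ± 40 in the wild type, in scaled RPM, with no overlap (SD, n = 3; two-sided exact permutation test, p = 0.1).

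**Figure D3:**
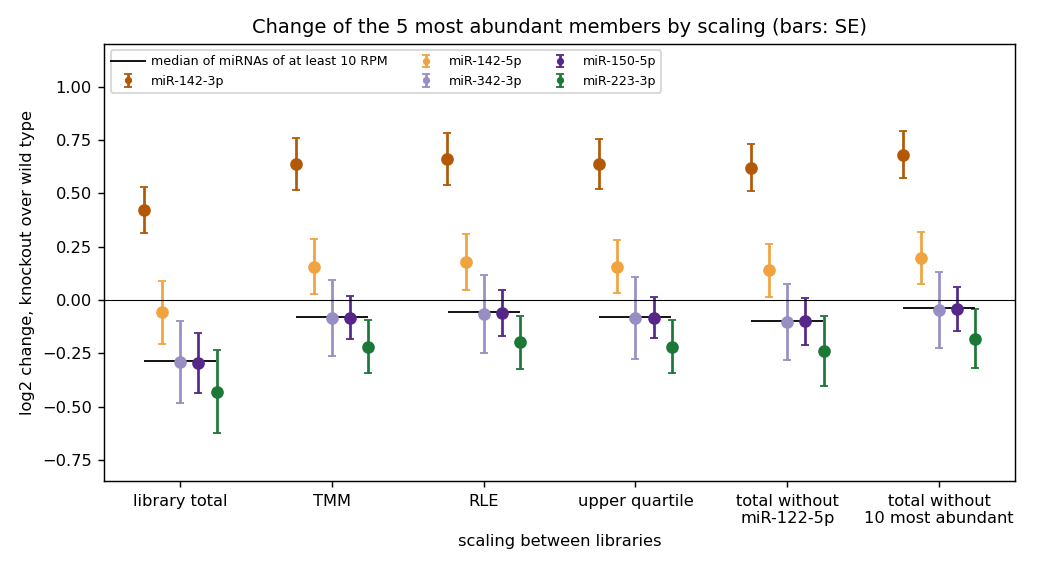
Log2 change of knockout over wild type (bars: SE) for the 5 members of at least 10 RPM under 6 ways of scaling the libraries; black bars give the median of the 218 miRNAs of that abundance. miR-142-3p is 0.42 with library totals and between 0.62 and 0.68 with the others, miR-142-5p is below 0 with library totals and above 0 with the others, and the other 3 stay below 0.

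A ratio within a library does not depend on that scaling. miR-223-3p was 0.058, 0.078 and 0.086 times the sum of the miR-142 arms in knockout libraries 1 to 3, against 0.124, 0.115 and 0.099 times in wild type libraries 1 to 3. miR-150-5p was 0.144, 0.178 and 0.177 times that sum in the knockout, against 0.227, 0.238 and 0.229 times in the wild type. For miR-342-3p the figures were 0.025, 0.031 and 0.038 in the knockout, against 0.0391, 0.0404 and 0.0518 in the wild type. Its nearest pair almost met, at 0.0384 in knockout library 3 and 0.0391 in wild type library 1, on 222 and 253 reads of miR-342-3p. In all 3 ratios the knockout libraries were below the wild type libraries. The mean log2 differences were -0.63 for miR-223-3p, -0.49 for miR-150-5p and -0.49 for miR-342-3p. Each reached p = 0.1 in the two-sided exact permutation test, the lowest value it can give, and 0.13 when adjusted over the 4 ratios compared. The 3 share their denominator and are not independent of each other. How many other miRNAs had separate groups over this denominator was not counted, so the separation cannot be called particular to these 3. Both arms in the denominator lay above the median change, as given above, so a miRNA that changed like the median would also be lower over it. In their own levels miR-150-5p and miR-342-3p changed like the median miRNA, as given above. Myeloid miR-223-3p relative to lymphoid miR-150-5p was 0.405, 0.436 and 0.483 in the knockout and 0.545, 0.483 and 0.434 in the wild type, with overlapping groups and a log2 difference of -0.14 (two-sided exact permutation test, p = 0.5).

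The arms of miR-142 were balanced differently in the genotypes. The 3p arm held 55.0%, 50.0% and 58.7% of the reads of both arms in knockout libraries 1 to 3, against 43.7%, 49.5% and 45.5% in wild type libraries 1 to 3, on 5402 to 7214 reads per library. Knockout library 2 and wild type library 2 were equal within counting error, with 95% Wilson intervals of 48.8% to 51.1% and 48.2% to 50.8%, while the other knockout libraries lay above both and the other wild type libraries below both. The mean was 54.6% ± 4.4 in the knockout and 46.2% ± 2.9 in the wild type (SD, n = 3). The log2 ratio of 3p over 5p, with 1 RPM added to each arm, rose by 0.48 (SE 0.17) in the knockout and passed in a limma fit over 49 precursors with both arms at a mean of at least 10 RPM (Benjamini-Hochberg adjusted p = 0.022). Shifts of this kind were common, as 34.7% of those 49 precursors passed and 44.9% had groups that did not overlap, and miR-142 was place 14 of the 49 by size. A two-sided exact permutation test on its ratio gave p = 0.1, the lowest it can give. The call of miR-142 was lost without knockout library 1 or 3 or wild type library 1 or 3 (limma adjusted p = 0.051, 0.15, 0.17 and 0.055).

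miR-223 and miR-342 shifted toward the other arm. Of the reads of both miR-223 arms, 82.8%, 87.2% and 86.8% were 3p in knockout libraries 1 to 3, against 89.5%, 91.8% and 92.0% in wild type libraries 1 to 3. Of those of miR-342, 85.5%, 89.2% and 87.4% were 3p in knockout libraries 1 to 3, against 94.1%, 93.1% and 91.5% in wild type libraries 1 to 3. In both, every knockout library was below every wild type library, although intervals of neighbouring libraries overlapped, since the 5p arms had 47 to 94 reads for miR-223 and 16 to 32 for miR-342.

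**Figure D4:**
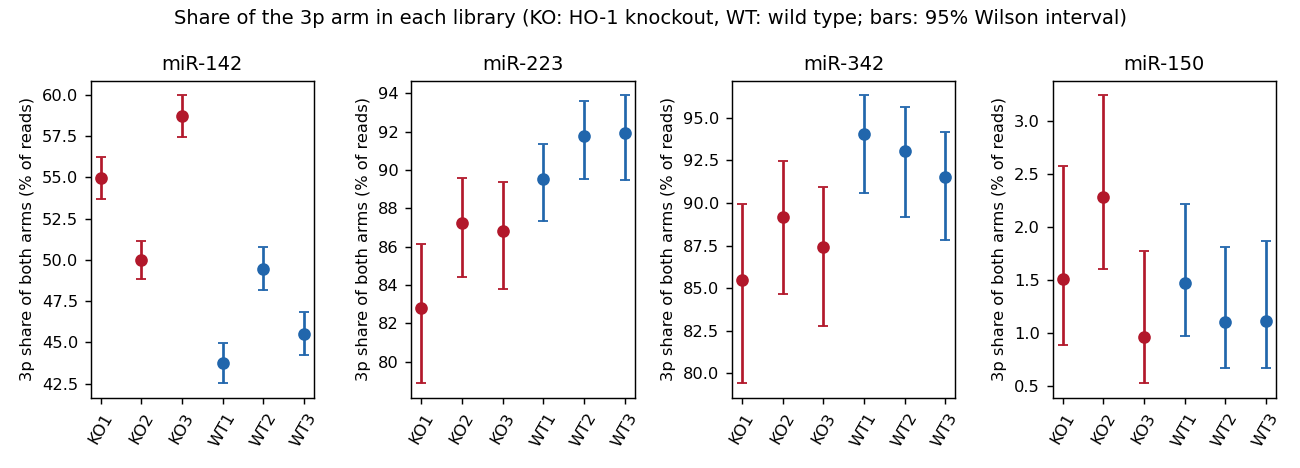
Share of the 3p arm in the reads of both arms, in percent, for each library (knockout in red, wild type in blue; bars: 95% Wilson interval, counting error only; the vertical axes differ and do not start at 0). The knockout lies above the wild type for miR-142, below it for miR-223 and miR-342, and overlaps it for miR-150.

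These 5p arms were too rare for the fit over 49 precursors, so the pair was tested in a wider fit over 84 precursors with both arms at a mean of at least 2 RPM. The log2 ratio of 3p over 5p fell by 0.72 (SE 0.19) for miR-223 and by 0.73 (SE 0.19) for miR-342 in the knockout (limma adjusted p = 0.0037 for each). The two-sided exact permutation test gave p = 0.1 for either, its lowest value, and 0.13 adjusted over the 4 precursors. For miR-342 the size depended on the pseudocount, with -0.90 at 0.1 RPM and -0.45 at 5 RPM. miR-142 passed there as well, with a log2 change of 0.48 (limma adjusted p = 0.046). In that fit 31% of the precursors passed and 39.3% had groups that did not overlap, so such a shift was not particular to these 3. With no filter on arm level, 12 of the 197 precursors fitted passed, and none of the 3 did (limma adjusted p = 0.15 for miR-142, 0.063 for miR-223 and 0.052 for miR-342). Each had an unadjusted p below 0.05 (0.033, 0.0055 and 0.0034 in limma), a mark for which the share of all 197 was not counted. For miR-150, 0.97% to 2.28% of the reads were 3p in the knockout and 1.10% to 1.47% in the wild type, on 10 to 30 reads of that arm, and its groups overlapped (two-sided exact permutation test, p = 0.6).

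**Figure D5:**
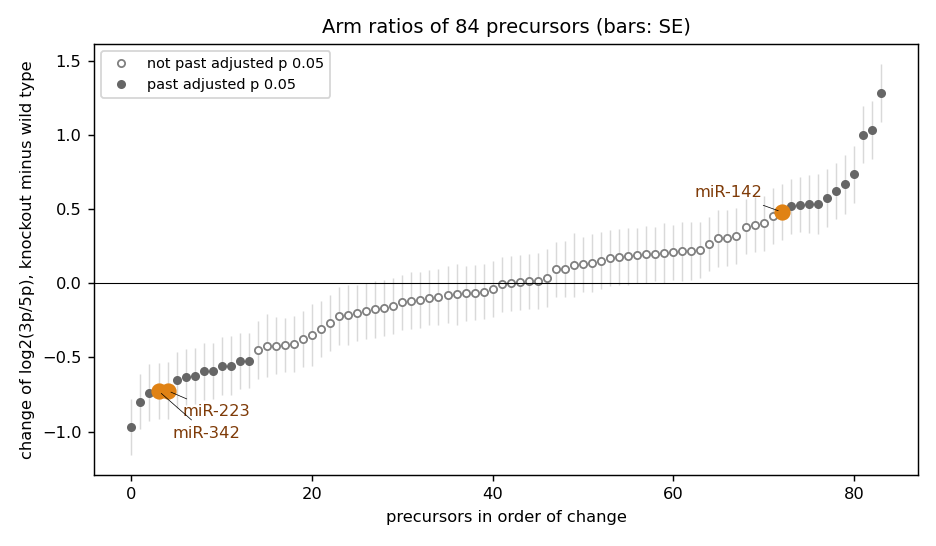
Change of log2(3p/5p), knockout minus wild type, for 84 precursors in order of size (bars: SE), with filled points past an adjusted p of 0.05 and 3 of the 4 precursors described here in orange. miR-142 is at 0.48, among the rising ratios, and miR-223 and miR-342 are at -0.72 and -0.73, among the falling ones.

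Other miRNAs of leukocytes were read from a list of miR-146a, miR-146b, miR-155, miR-181a to miR-181d and miR-652, in which 18 arms were measured and none passed in either direction in limma. By unadjusted p, 4 of the 18 were below 0.05, near the 19.3% of all tested miRNAs. On the recovered reads 1 passed in edgeR, where 10.7% of the 570 miRNAs did. In DESeq2 2 passed, where 20.6% of the 349 miRNAs given an adjusted p did. How many of the 18 were among those 349 was not counted. The arms that passed were miR-181d-5p in both and miR-181b-5p in DESeq2, each lower in the knockout. The median log2 change of the 18 arms was -0.26, beside -0.12 over all 570 tested miRNAs and -0.29 over the 218 of at least 10 RPM. The 8 rows had a median of -0.02 with their 3 rare arms, and the 5 of at least 10 RPM one of -0.29, as given above. The 18 other leukocyte arms summed to 3615 to 4559 RPM in the knockout and 4738 to 5349 RPM in the wild type, without overlap. With TMM scaling they summed to 4264 to 4804 scaled RPM in the knockout and 4413 to 5489 in the wild type, with overlap. Most of this sum was miR-146a-5p, an NF-kB induced miRNA, at 2388, 2839 and 3145 RPM in knockout libraries 1 to 3, against 3080, 2988 and 3708 RPM in wild type libraries 1 to 3. The 5 red blood cell and platelet rows, of miR-451, miR-144 and miR-486, summed to 377 to 459 RPM in the knockout and 468 to 580 RPM in the wild type. With TMM scaling these sums were 445 to 462 scaled RPM in the knockout and 386 to 547 in the wild type, with overlap. None of the 5 rows passed in limma, where 0 had an unadjusted p below 0.05, or in edgeR or DESeq2. Both endothelial miR-126a arms fell with library totals, summing to 19147 to 21287 RPM in the knockout, against 25222 to 26982 RPM in the wild type. With TMM scaling miR-126a-5p still passed and miR-126a-3p did not (limma adjusted p = 0.019 and 0.46). The sums then overlapped, at 20177 to 22638 scaled RPM in the knockout and 21979 to 25938 in the wild type. The part of these cell types in the members' values was not tested.

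For each of the 5 members of at least 10 RPM, the miRNAs with the most similar pattern were found among the other 217 miRNAs of that abundance, as the smallest mean absolute difference of log2(RPM + 1) centred over the 6 libraries. For miR-142-3p they were miR-671, at 0.042, miR-363-3p, at 0.075, and miR-122-5p, at 0.078, beside a median of 0.36 over all others. miR-122-5p stood at 463696, 402452 and 436548 RPM in knockout libraries 1 to 3, against 326912, 362709 and 365528 RPM in wild type libraries 1 to 3. For miR-142-5p they were miR-30c-1-3p, miR-27a-3p and miR-598-3p, at 0.060 to 0.071. Its sister arm miR-142-3p was at 0.25, place 124 in order of likeness to miR-142-5p, while from the side of miR-142-3p the same 0.25 was place 55. For miR-223-3p they were miR-140-3p, miR-23a-3p and miR-28-3p, at 0.038 to 0.057, for miR-150-5p miR-15b-5p, miR-195-5p and miR-29c-3p, at 0.048 to 0.053, and for miR-342-3p miR-146a-5p, miR-30d-5p and miR-10a-5p, at 0.037 to 0.057. No member had another member among its 3 nearest, which says little, as only 5 of the 218 miRNAs of that abundance were members. Among members, miR-223-3p and miR-150-5p were the most alike, at 0.12. That was place 26 in order of likeness to miR-223-3p and place 56 in order of likeness to miR-150-5p.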

How the data were processed

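Per the labels' protocols, a ligation-based kit turned 1 μg of each total RNA into a small RNA library, read as single 50 bp ends. The authors deposited RPM per rat miRNA entry, rounded to 2 decimals, with their genotype means in RPM, a log2 fold change and a p-value, per the file headers. The submitters' processing notes name FastQC, BWA, edgeR and rn6 without roles. How isoforms and reads matching several miRNAs were treated is not stated in the sources used here. Columns were matched to samples by name, with 0 unmatched. Whole reads were recovered from the RPM steps: 97.8% to 98.9% of values above 0 lay within 0.0051 RPM of a whole read, and recovered reads summed to the recovered totals. In wild type library 1 a read is worth 0.0996 RPM, so its low values alone do not show the step. Intervals cover counting error only, since PCR copies were kept. Replicates of a genotype differed by more than sampling noise (chi-square per degree of freedom between 104.4 and 270.4).

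Genotypes were compared in limma 3.58.1, with an intensity trend, on log2(RPM + 1) of the 570 miRNAs detected in any library. Genotype was the sole factor, and p-values were adjusted by Benjamini-Hochberg. Arm ratios used limma without a trend. Alternatives were other scalings, pseudocounts, filters, a replicate block, each library left out, and edgeR 4.0.16 and DESeq2 1.42.0 on recovered reads. Some of the fits were also run on simulated data. No outcome of those runs is given here, so they are no evidence for the accuracy of any test above, the main limma fit and DESeq2 included. Members, lists and tests were chosen with earlier results of these data known. Every member is named, and other miRNAs are given as lists or as the 3 nearest patterns of a member. The arm-ratio fit over 84 precursors was planned as an alternative, and its use for miR-223 and miR-342 was chosen after the data were seen.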

Additional observations from a re-analysis of the deposited data

How the results depend on the processing

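No member was called in the analysis as reported, and 1, miR-142-3p, was called with any of 3 scalings (TMM, RLE, upper quartile). It was also called with totals without miR-122-5p or the 10 most abundant miRNAs, a mean of at least 10 RPM, edgeR and DESeq2. It was not called with other pseudocounts, without the trend or with any library left out. In the settings that called it, 7.72% to 10.7% of all tested miRNAs passed, but 20.6% in DESeq2 and 22.9% at a mean of at least 10 RPM. With that filter 1 of 5 members passed, at a limma adjusted p of 0.0497. The log2 change of miR-142-3p lay between 0.36 and 0.68 over the 18 alternatives, with adjusted p between 0.00016 and 0.20. miR-142-5p changed sign, to 0.16, 0.18 and 0.16 in those scalings in turn, 0.14 and 0.20 with totals lacking miR-122-5p or the 10 most abundant miRNAs, and 0.17 and 0.19 in edgeR and DESeq2. With 1 library left out it lay between -0.17 and 0.064, miR-150-3p between -0.24 and 0.23, miR-223-5p between 0.11 and 0.51, miR-223-3p between -0.57 and -0.29 and miR-342-3p between -0.39 and -0.16. The arm ratio of miR-142 lay between 0.36 and 0.61 with 1 library left out, and kept its value of 0.48 but lost its call with no filter on arm level, as did those of miR-223 (-0.72) and miR-342 (-0.73). The last 2 kept their calls with any library left out. The summed level without the miR-142 arms had a log2 change of -0.30, and -0.088 with TMM scaling, against 0.06 with them. Over all miRNAs, the 36 calls became 55 with totals lacking the 10 most abundant, 61 in edgeR, 72 in DESeq2, 22 in the replicate block and 5 to 26 with 1 library left out. The cause of these changes was not tested.

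Between libraries of equal replicate number, deviations from the group means correlated at 0.033, 0.18 and 0.20 for numbers 1 to 3 across 218 miRNAs. Libraries of unlike number were not compared, so these values cannot decide whether equal numbers pair the libraries. With the replicate number as a block, 0 members were called and the arm ratio of miR-142 kept 0.48 (limma adjusted p = 0.041). Depth limits miR-150-3p and miR-342-5p, which had at most 32 reads in a library. The fits with no filter on arm level, without the trend or with a sum lacking the miR-142 arms were chosen after seeing the data. So were TMM scaling of the leukocyte, red blood cell and endothelial sums, and all alternatives for the arm ratios of miR-223 and miR-342.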
